A study of Mus musculus with 6 samples.

Results

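The voltage-gated calcium and sodium channel genes were described in mouse cerebellum by RNA-seq. They were chosen by name, as every gene whose symbol begins with Cacna, Cacnb or Cacng, or with Scn followed by a digit, which gave 40 of the 24537 genes listed. The set held 10 sodium channel α genes, 4 sodium channel β genes, 10 calcium channel α1 genes, 4 α2δ genes (Cacna2d1 to Cacna2d4), 4 calcium channel β genes and 8 γ genes. The libraries were 3 from Reln heterozygous null mice (HET) with the strain label Orl/BalbC and 3 from wild-type (WT) mice with the strain label C57BL/6. The labels describe the allele no further, and Orl is also the common abbreviation of the Orleans reeler allele of Reln. All were from male mice of 6 weeks, and no treatment is given. Genotype and labelled strain differed together in every library and cannot be told apart. Nothing in the labels ties each library to an animal of its own, so p-values refer to the spread between these libraries.

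A sodium channel α subunit or a calcium channel α1 subunit forms the ion pore and senses voltage by itself. Sodium channel β subunits are small membrane proteins that set where the channels sit and how they open and close. Calcium channel β and α2δ subunits bring the pore to the membrane. Most γ genes act chiefly on AMPA receptors, as transmembrane AMPA receptor regulatory proteins. In the cerebellum, Purkinje cells fire without synaptic input through sodium channels that carry a resurgent current, and their main calcium current is of the P type, carried by the product of Cacna1a. In mice, mutations of Cacna1a, Cacnb4, Cacna2d2, Cacng2 and Scn8a each cause ataxia.

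Reln was lower in every heterozygous library, at 0.531, 0.509 and 0.580 FPKM (fragments per kilobase of exon, scaled to a common number of fragments) in heterozygous replicates 1, 2 and 3, against 0.834, 0.771 and 0.940 FPKM in wild-type replicates 1, 2 and 3. Depth was about 22900000 to 27100000 reads in heterozygous and 26900000 to 28600000 reads in wild-type libraries, estimated from the steps between low FPKM values. The tissue label held, with Pcp2 of Purkinje cells at 162 to 167 FPKM in heterozygous and 122 to 175 FPKM in wild-type libraries and Gabra6 of granule cells at 58.0 to 66.8 and 53.7 to 68.4 FPKM. Choroid plexus markers varied widely between libraries. The sum of 6 was 3.66, 163 and 7.08 FPKM in heterozygous and 286, 0.811 and 157 FPKM in wild-type replicates 1, 2 and 3. The part of this in the values of channel genes was not tested. Wild-type replicate 2 had the lowest value for 78.4% of the genes that averaged 1 FPKM or more. Dividing each library by its median-of-ratios factor (the median over genes of its value relative to the geometric mean over libraries), 0.987 to 1.14 in heterozygous and 0.840 to 1.08 in wild-type libraries, moved the median difference of all genes from 0.083 to -0.0014 on the log2(FPKM + 1) scale.

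Levels of the 40 genes covered a wide range, with values listed at 0 for 7 of them in 1 or more libraries. The minimum for the test, an average of 1 FPKM across the 6 libraries, was reached by 11 genes. Of the other 29, 12 had a mean of 0.1 to 1 FPKM, 9 of 0.01 to 0.1 FPKM and 8 of less than 0.01 FPKM. FPKM is a level per length of transcript, so these levels can be set side by side.

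**Figure D1:**
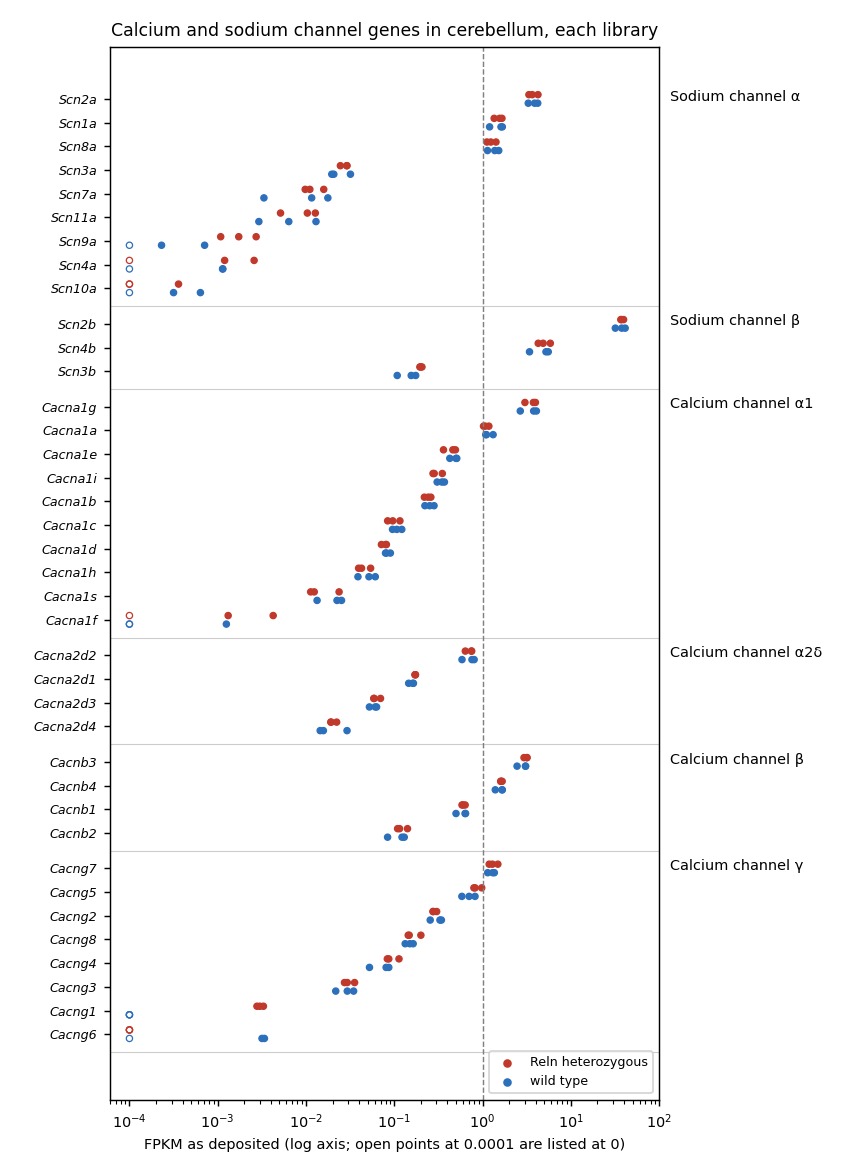
FPKM as deposited of 38 of the genes, on a log axis, 1 point for each library, with the 3 heterozygous libraries drawn above the 3 wild-type libraries of the same gene; open points at the left edge are listed at 0 and the dashed line marks 1 FPKM. Scn2b lies apart from the other genes drawn, at 31.9 to 41.3 FPKM, and 10 genes lie to the right of the line by their mean.

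Promoter sequences are shown for 4 genes because they differ in content of the CG dinucleotide (CpG). In these 4 the level was lower where the CG count was higher, an order that the 30 genes counted below did not share. Each is the part of the RefSeq promoter window (GRCm38.p6, the assembly also called mm10) that lies before the first exon of its gene in GENCODE M21, written 5′ to 3′ on the strand of the gene, with each CG in capitals. Scn2b is at chr9:45117626-45117781 (plus strand), Scn1a at chr2:66440841-66441087 (minus strand), Cacna1b at chr2:24763153-24763402 (minus strand) and Cacna2d1 at chr5:15934441-15934690 (plus strand).
Scn2b: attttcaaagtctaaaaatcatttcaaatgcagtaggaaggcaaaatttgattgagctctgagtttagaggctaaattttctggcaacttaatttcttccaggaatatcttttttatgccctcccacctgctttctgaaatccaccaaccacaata
Scn1a: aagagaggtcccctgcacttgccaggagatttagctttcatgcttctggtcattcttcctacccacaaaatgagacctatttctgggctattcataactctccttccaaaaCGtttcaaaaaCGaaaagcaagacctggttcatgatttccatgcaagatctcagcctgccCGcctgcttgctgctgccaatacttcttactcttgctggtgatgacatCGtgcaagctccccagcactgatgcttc
Cacna1b: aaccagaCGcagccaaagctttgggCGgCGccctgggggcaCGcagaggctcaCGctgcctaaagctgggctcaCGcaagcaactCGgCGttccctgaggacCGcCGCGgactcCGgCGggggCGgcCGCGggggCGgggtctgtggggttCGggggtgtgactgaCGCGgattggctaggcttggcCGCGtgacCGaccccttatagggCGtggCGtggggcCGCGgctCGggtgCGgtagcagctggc
Cacna2d1: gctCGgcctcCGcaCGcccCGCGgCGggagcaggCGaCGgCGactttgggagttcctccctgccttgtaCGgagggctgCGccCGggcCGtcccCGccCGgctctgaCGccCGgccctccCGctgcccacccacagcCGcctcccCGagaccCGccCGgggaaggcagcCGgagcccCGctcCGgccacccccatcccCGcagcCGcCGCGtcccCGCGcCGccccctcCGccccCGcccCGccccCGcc

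The stretch of Scn2b, whose mean was 37.5 FPKM, held no CG, and that of Scn1a, whose mean was 1.51 FPKM, held 4. That of Scn2b had only 156 bases, against 247 to 250 for the others, and its full window of 300 bases held 2 CG. The stretches of Cacna1b and Cacna2d1, whose means were 0.246 and 0.165 FPKM, held 29 and 36. A RefSeq window of 300 bases (from 250 before to 50 after a RefSeq start) was available for 30 of the 40 genes. The most upstream window of each gene was used, which did not always lie at the start of the gene in GENCODE M21. That of Cacna1e (chr1:154725871-154726170, minus strand) lay inside the gene (154390731 to 154884501), so some counts describe internal starts. At least 20 CG, which read the same on both strands, were present in 11 of these 30 windows (36.7%), against 26.8% of the windows of 27025 genes. By level, this held for 3 of 8 genes that averaged 1 FPKM or more, 7 of 11 genes with a mean of 0.1 to 1 FPKM and 1 of 11 genes below that. Spearman's rho between the CG count and mean FPKM was 0.21 across the 30 genes, which is a description across genes that share the libraries.

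None of the 11 tested channel genes passed limma, which compared log2(FPKM + 1) between heterozygous and wild-type libraries over all 6358 genes that averaged 1 FPKM or more, at a Benjamini-Hochberg adjusted p under 0.05. Of all tested genes 0.0786% were called, 0.0157% higher and 0.0629% lower in heterozygous libraries. At an unadjusted p under 0.05 there were 0 of the 11 channel genes and 212 of all genes. The 95% intervals (limma, not adjusted for the number of genes) left room for ratios of FPKM + 1 between 0.793 and 1.31 over the 10 genes described here and both scalings shown. Changes in FPKM itself beyond that size were not resolved either, since adding 1 understates changes of low genes. With 0.1 added in place of 1, the intervals for FPKM as deposited reached 0.755 (Cacna1a and Scn8a) and 1.36 (Scn4b). For FPKM as deposited, most of the spread that limma used for a gene came from other genes of like level, with 54.4 degrees of freedom against 4 from its own libraries. The scaled fits have their own value, which is not given here. The median coefficient of variation of the 11 genes was 11.6% in heterozygous and 12.7% in wild-type libraries, against 10.3% and 13.8% for all tested genes. After median-of-ratios scaling it was 9.08% and 9.29%, against 6.98% and 6.5%.

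**Figure D2:**
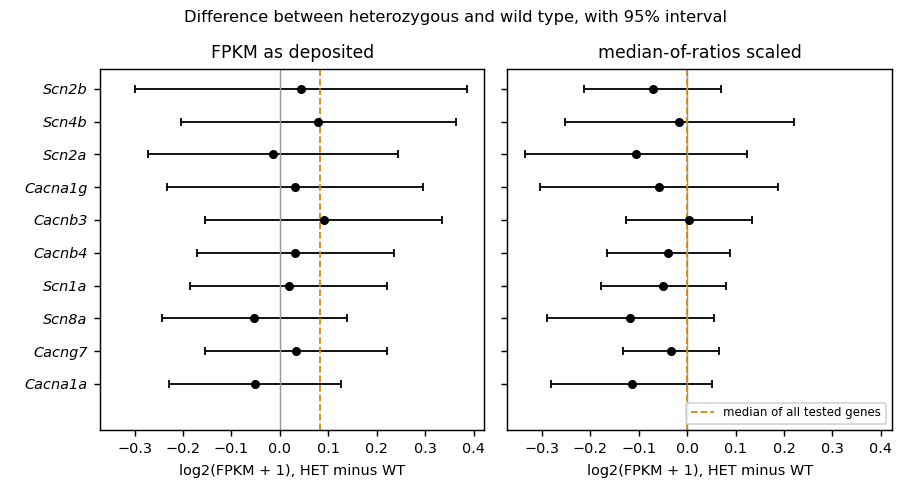
Difference in mean log2(FPKM + 1), heterozygous (HET) minus wild type (WT), of 10 genes that averaged 1 FPKM or more, with its 95% interval from limma, for FPKM as deposited (left) and after median-of-ratios scaling (right); the dashed line is the median of all tested genes. Every interval contains 0 in both panels, and 9 of the 10 points lie below the dashed line in each.

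Sodium channel β genes were the most abundant of the set. Scn2b, which encodes β2, stood at 36.9, 39.6 and 37.4 FPKM in heterozygous replicates 1, 2 and 3, against 41.3, 31.9 and 37.7 FPKM in wild-type replicates 1, 2 and 3. The wild-type libraries spanned the heterozygous ones. Its difference was 0.044 (SE 0.17, interval -0.30 to 0.39, limma adjusted p = 0.95). In mean FPKM Scn2b was above 99.1% of all genes.

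Scn4b encodes β4, whose cytoplasmic end acts as the blocking particle of the resurgent current in Purkinje cells. It stood at 4.27, 5.86 and 4.86 FPKM in heterozygous and 5.55, 3.41 and 5.23 FPKM in wild-type libraries (difference 0.079, SE 0.14, limma adjusted p = 0.90). The groups overlapped, with wild-type replicate 2 lowest. Scn4b lies 8.32 kb downstream of Scn2b on chromosome 9 (45117782 to 45130070 for Scn2b and 45138395 to 45154152 for Scn4b, both on the plus strand, mm10), with no coding gene between them. Within a library the level of Scn2b was 7.70 ± 0.93 times that of Scn4b in heterozygous and 8.01 ± 1.2 times in wild-type cerebellum (SD, n = 3 each). Scn3b, which encodes β3, was the lowest of the β genes, and its values are given with the genes under 1 FPKM.

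Of the 10 sodium channel α genes, Scn1a, Scn2a and Scn8a made up nearly all of the signal. Scn2a, which encodes NaV1.2, the channel of thin unmyelinated axons such as granule cell parallel fibres, stood at 3.35, 3.66 and 4.24 FPKM in heterozygous and 3.89, 3.3 and 4.22 FPKM in wild-type libraries (difference -0.014, SE 0.13, interval -0.27 to 0.24, limma adjusted p = 0.98). Scn1a, which encodes NaV1.1 of inhibitory neurons, stood at 1.35, 1.66 and 1.56 FPKM in heterozygous and 1.68, 1.2 and 1.62 FPKM in wild-type libraries (difference 0.019, SE 0.10, limma adjusted p = 0.96). Scn8a, which encodes NaV1.6 of axon initial segments and nodes, stood at 1.12, 1.24 and 1.42 FPKM in heterozygous and 1.38, 1.14 and 1.53 FPKM in wild-type libraries (difference -0.053, SE 0.095, limma adjusted p = 0.90). The groups overlapped for all 3 genes. As a share of the summed FPKM of the α genes, which does not depend on the scaling of a library, Scn2a took 56.9 ± 1.5% in heterozygous and 56.9 ± 1.3% in wild-type cerebellum. Scn1a took 23.2 ± 1.8% and 22.3 ± 1.4%, and Scn8a 19.1 ± 0.38% and 20.1 ± 0.47% (SD, n = 3 each; heterozygous before wild type). Shares of Scn8a were 19.0%, 18.8% and 19.5% in heterozygous and 19.7%, 20.1% and 20.6% in wild-type libraries, so that they did not overlap. Of the 23 channel genes that averaged 0.1 FPKM or more, 5 had shares of their class without overlap, with Scn8a, Cacna1i and Cacng7 lower and Scn3b and Cacng5 higher in heterozygous libraries, and none of these was tested. No such share was computed for other genes, so the count of 5 has no background of its own kind. Ratios between pairs of tested genes, a different measure, did not overlap between the groups in 10.6%. Shares within 1 class also depend on each other, such as those of Cacng5 and Cacng7.

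The 7 remaining α genes were low in every library. Scn3a, which encodes the fetal and neonatal channel NaV1.3, was the highest of them, at 0.0245 to 0.0290 FPKM in heterozygous and 0.0196 to 0.0319 FPKM in wild-type libraries. Scn3a, Scn2a, Scn1a, Scn9a and Scn7a form a cluster on chromosome 2, in which levels of neighbours differ widely. Scn2a (65620771 to 65767447) lies 53.1 kb from Scn3a on the opposite strand, and Scn1a (66270778 to 66440840) lies 39.2 kb from Scn9a, whose mean was 0.00108 FPKM. Scn10a and Scn11a of sensory neurons lie 34.4 kb apart on chromosome 9, with means of 0.000219 and 0.00843 FPKM. Scn4a of skeletal muscle had a mean of 0.00101 FPKM, beside muscle markers of 0.00222 FPKM for Myh4, 0.00167 for Ckm, 0.00589 for Mb and 0.477 for Acta1. Fewer than 3 reads per library were estimated for 9 of the 40 channel genes in every library, and no ratio is given for these.

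**Figure D3:**
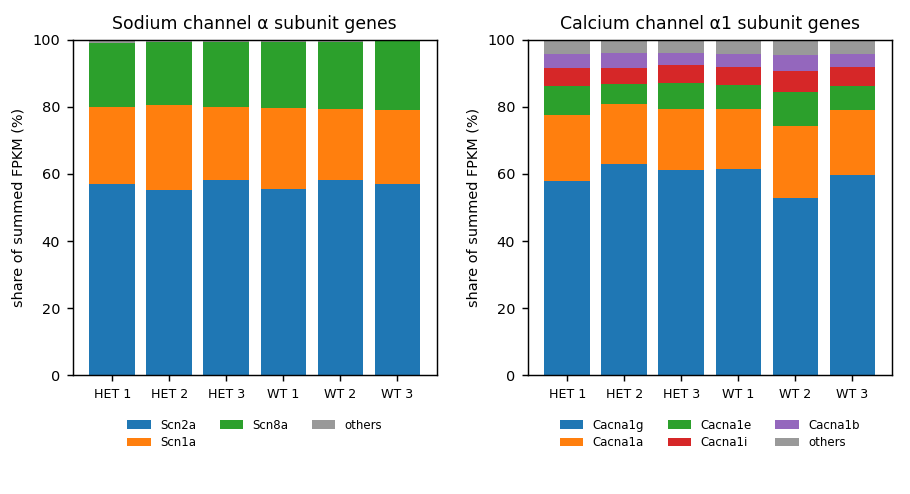
Share (%) of the summed FPKM of the 10 sodium channel α genes (left) and of the 10 calcium channel α1 genes (right) in each library, heterozygous (HET) before wild type (WT). Scn2a takes between 55.3% and 58.3% on the left, and Cacna1g between 52.9% and 62.9% on the right, lowest in wild-type replicate 2.

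Cacna1g and Cacna1a were the calcium channel α1 genes above 1 FPKM. Cacna1g, which encodes the T-type channel CaV3.1 that opens at low voltage, stood at 3.02, 3.77 and 3.97 FPKM in heterozygous and 3.79, 2.68 and 4.07 FPKM in wild-type libraries (difference 0.031, SE 0.13, interval -0.23 to 0.30, limma adjusted p = 0.95). Cacna1a, which encodes CaV2.1 of the P and Q type, stood at 1.03, 1.07 and 1.18 FPKM in heterozygous and 1.11, 1.09 and 1.32 FPKM in wild-type libraries (difference -0.052, SE 0.089, interval -0.23 to 0.13, limma adjusted p = 0.90). The groups overlapped for both. Cacna1g took 60.7 ± 2.6% of the summed FPKM of the α1 genes in heterozygous and 58.0 ± 4.5% in wild-type cerebellum, and Cacna1a 18.6 ± 0.93% and 19.6 ± 1.8% (SD, n = 3 each). In every library Cacna1g was thus above Cacna1a, by 3.28 ± 0.30 times in heterozygous and 2.99 ± 0.49 times in wild-type cerebellum. Cacna1i took 5.26%, 4.74% and 5.40% in heterozygous and 5.61%, 6.05% and 5.42% in wild-type libraries, without overlap.

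Below 1 FPKM came Cacna1e of the R type at 0.438 ± 0.069 and 0.479 ± 0.046 FPKM, Cacna1i of the T type at 0.303 ± 0.041 and 0.341 ± 0.032 FPKM, and Cacna1b of the N type at 0.24 ± 0.020 and 0.252 ± 0.030 FPKM, in heterozygous and wild-type cerebellum (SD, n = 3 each). The L-type genes Cacna1c and Cacna1d had means of 0.103 and 0.0807 FPKM, and Cacna1h of the T type one of 0.0479 FPKM. The order Cacna1e, Cacna1i, Cacna1b, Cacna1c, Cacna1d and Cacna1h held within each of the 6 libraries. Its closest neighbours were Cacna1c and Cacna1d, at 0.0841 and 0.0799 FPKM in heterozygous replicate 2. Cacna1s of skeletal muscle and Cacna1f of retina were lowest, at 0.0113 to 0.0253 FPKM and 0 to 0.00425 FPKM over the 6 libraries. Opposite-strand coding genes overlap the span of Cacna1c (Dcp1b, mean 0.173 FPKM) and Cacna1d (Dcp1a, 0.506 FPKM, and Chdh, 0.0902 FPKM), and since the strand setting of the quantification is not given in the sources used here, reads of such pairs may not be separated.

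Among calcium channel β genes, Cacnb3 and Cacnb4 were highest. Cacnb3 stood at 3.19, 3.18 and 2.95 FPKM in heterozygous and 3.07, 2.46 and 3.07 FPKM in wild-type libraries (difference 0.090, SE 0.12, limma adjusted p = 0.90). Cacnb4, which is mutated in the ataxic mouse lethargic and is a main partner of CaV2.1 in the cerebellum, stood at 1.62, 1.6 and 1.67 FPKM in heterozygous and 1.67, 1.39 and 1.66 FPKM in wild-type libraries (difference 0.032, SE 0.10, limma adjusted p = 0.94). Wild-type replicate 2 was lowest for both and the groups overlapped. The composition of the β genes was nearly the same in every library. Cacnb3 took 56.8 ± 1.9% and 55.7 ± 0.22%, Cacnb4 29.9 ± 0.94% and 30.7 ± 0.64%, Cacnb1 11.1 ± 0.59% and 11.5 ± 0.20%, and Cacnb2 2.23 ± 0.34% and 2.16 ± 0.24% of the summed FPKM in heterozygous and wild-type cerebellum (SD, n = 3 each).

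The α2δ genes lay under 1 FPKM. Cacna2d2, which is mutated in the ataxic mouse ducky and is strongly expressed by Purkinje cells, led with 73.5 ± 1.5% and 75.0 ± 1.9% of their summed FPKM in heterozygous and wild-type cerebellum (SD, n = 3 each). Its level was 0.638, 0.753 and 0.747 FPKM in heterozygous and 0.759, 0.585 and 0.803 FPKM in wild-type libraries. The groups overlapped. Cacna2d1, a binding site of gabapentin, followed with a mean of 0.165 FPKM, then Cacna2d3 with 0.0607 and Cacna2d4 with 0.0200 FPKM. Cacna2d4 encloses Lrtm2 on the opposite strand, whose mean was 1.17 FPKM.

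Cacng7 was the γ gene with the highest level, at 1.29, 1.49 and 1.19 FPKM in heterozygous and 1.36, 1.14 and 1.3 FPKM in wild-type libraries (difference 0.034, SE 0.094, limma adjusted p = 0.93). Cacng5, expressed by Bergmann glia, came next, at 0.823, 0.979 and 0.798 FPKM in heterozygous and 0.822, 0.583 and 0.704 FPKM in wild-type libraries. Cacng2, which encodes stargazin, the AMPA receptor partner that granule cells need, stood at 0.274, 0.277 and 0.302 FPKM in heterozygous and 0.329, 0.255 and 0.342 FPKM in wild-type libraries. In FPKM as deposited the groups overlapped for all 3. Of the 8 γ genes 6 lie in tandem, Cacng7, Cacng8 and Cacng6 on chromosome 7 and Cacng5, Cacng4 and Cacng1 on chromosome 11. In both clusters the level fell along the row, with means of 1.3, 0.156 and 0.00109 FPKM for Cacng7, Cacng8 and Cacng6 and of 0.785, 0.0839 and 0.00151 FPKM for Cacng5, Cacng4 and Cacng1. Cacng6 and Cacng1 had at most 0.18 and 0.0942 estimated reads in a library, below 3 reads, so their own levels were not resolved.

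Few channel genes had groups without overlap. In FPKM as deposited this held for 0 of the 11 tested genes, where over all tested genes every heterozygous library was above every wild-type library in 4.81% and below in 0.739%. Among the 12 genes with a mean of 0.1 to 1 FPKM, heterozygous libraries were above wild type in 2, against 4.4% of all genes of that range, and below in 0, against 1.84%. Scn3b had 0.199, 0.206 and 0.195 FPKM in heterozygous and 0.156, 0.108 and 0.175 FPKM in wild-type libraries, about 12 to 23.2 reads each with a counting error of 21% to 29%. Cacna2d1 had 0.171, 0.174 and 0.173 FPKM in heterozygous and 0.162, 0.146 and 0.165 FPKM in wild-type libraries. It had about 29.1 to 35.1 reads each with a counting error of 17% to 19%, wider than the gap between the groups. The 2 other genes without overlap, Cacng1 and Scn9a, had at most 0.0942 and 0.726 estimated reads in a library, below the floor of 3 reads, and no ratio is given for them.

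After median-of-ratios scaling the heterozygous libraries remained above wild type for Scn3b, at 0.197, 0.181 and 0.198 against 0.144, 0.129 and 0.18 FPKM. They were above for Cacng5 as well, at 0.817, 0.862 and 0.809 against 0.761, 0.695 and 0.723 FPKM, while the groups of Cacna2d1 overlapped. Cacng5 had about 58.1 to 98.3 reads each with a counting error of 10% to 13%. Scn3b and Cacng5 are 2 of 12 genes, against 2.81% of all genes of that range, and heterozygous libraries were below wild type for 0 of 12, against 6.87%. Scn2b fell without overlap, at 36.6, 34.9 and 37.9 FPKM in heterozygous and 38.2, 38.0 and 38.8 FPKM in wild-type libraries, 1 of 11 tested genes against 5.14% of all tested genes, and 0 of 11 were above, against 5.74%. None of the 3 passed limma when scaled values were tested with a pseudocount of 0.1 over the 12221 genes that averaged 0.1 FPKM or more, where 0.00818% of genes were called. The differences there were 0.22 (SE 0.10) for Scn3b, 0.17 (SE 0.066) for Cacng5 and -0.073 (SE 0.057) for Scn2b, with limma adjusted p of 0.83, 0.83 and 0.84. Of 6 markers of astrocytes and Bergmann glia, all averaged higher in heterozygous cerebellum as deposited, as did 83.1% of all tested genes, and 4 did after scaling. Their scaled sums were 67.9, 77.4 and 68.4 FPKM in heterozygous and 76.3, 62.0 and 70.5 FPKM in wild-type libraries, which overlapped, and their part in the values of Cacng5 was not tested.

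**Figure D4:**
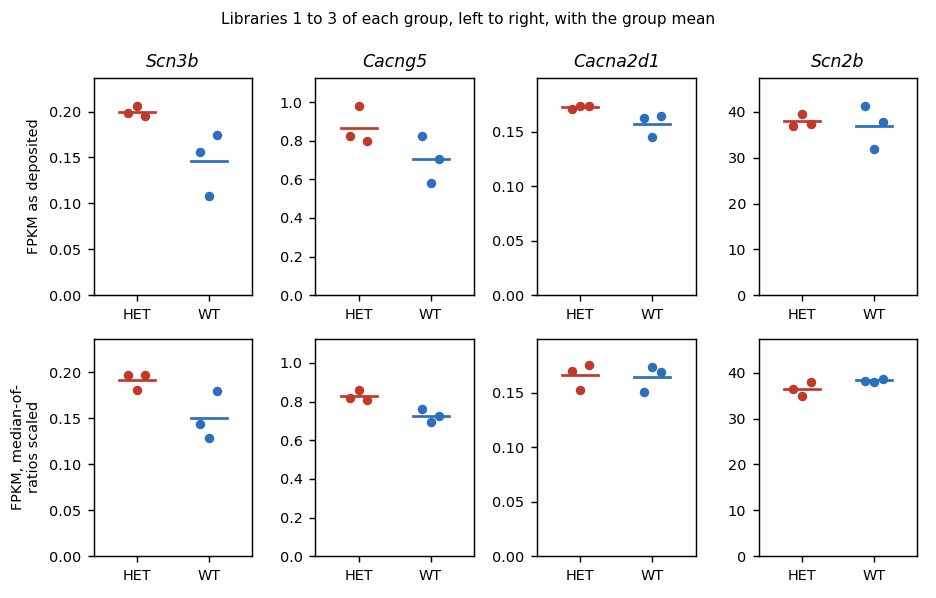
FPKM as deposited (top) and after median-of-ratios scaling (bottom) of the 4 genes named for groups without overlap, 1 point for each library, heterozygous (HET) left of wild type (WT), with the group mean as a line. Scn3b is apart in both rows, Cacna2d1 in the top row alone, and Cacng5 and Scn2b in the bottom row alone.

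The median ratio of pore genes was below that of auxiliary genes, though single genes of the classes crossed and the difference was not tested. Of the 20 pore genes (α and α1), 9 had a mean of at least 0.1 FPKM, and the ratio of heterozygous to wild-type mean FPKM had a median of 0.936 over these, with 7 of 9 under 1. Of the 20 auxiliary genes (β, α2δ and γ), 14 reached that level, with a median ratio of 1.07 and 2 of 14 under 1. The median was 1.07 over all 12226 genes of that level, of which 25.3% were under 1. With 1 library left out at a time, the pore genes under 1 numbered 4 (without wild-type replicate 3) to 9 of 9, and the auxiliary genes under 1 numbered 1 to 8 (without wild-type replicate 2) of 14. After median-of-ratios scaling the medians were 0.868 for pore genes (9 of 9 under 1), 0.993 for auxiliary genes (7 of 14) and 0.986 for all genes (56.6%). The lowest scaled ratios were 0.824 for Cacna1i, 0.841 for Cacna1e and 0.849 for Cacna1c, and the highest of a pore gene was 0.95 for Cacna1g.

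A wider set of long genes of like level is set beside the pore genes here. It includes the 9 pore genes themselves and the auxiliary gene Cacnb4. Over all genes of a class, the median longest transcript was 8420 bases for sodium channel α and 9020 bases for calcium channel α1 genes. It was 4403 bases for sodium channel β genes and 3598 bases for the auxiliary calcium channel genes. No wider set was made for auxiliary genes, and the part of length in the ratios was not tested. The longest annotated transcript of these 9 pore genes had at least 7926 bases. Over the 639 genes with a transcript at least as long and a mean FPKM within the range of the 9, the median ratio was 0.99 as deposited, with 56.3% under 1, and 0.913 after scaling, with 88.3% under 1. Without wild-type replicate 3, 28.8% of these were under 1 as deposited and 75.6% after scaling. With 1 library left out at a time, the median scaled ratio of the 9 pore genes ran from 0.801 to 0.945 and that of the 639 genes from 0.876 to 0.954. The nuclear RNA Malat1 had a lower mean in heterozygous libraries too, at 428, 372 and 304 FPKM against 426, 677 and 646 FPKM in wild-type libraries. Its groups overlapped, with heterozygous replicate 1 above wild-type replicate 1, and its part in these ratios was not tested.

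**Figure D5:**
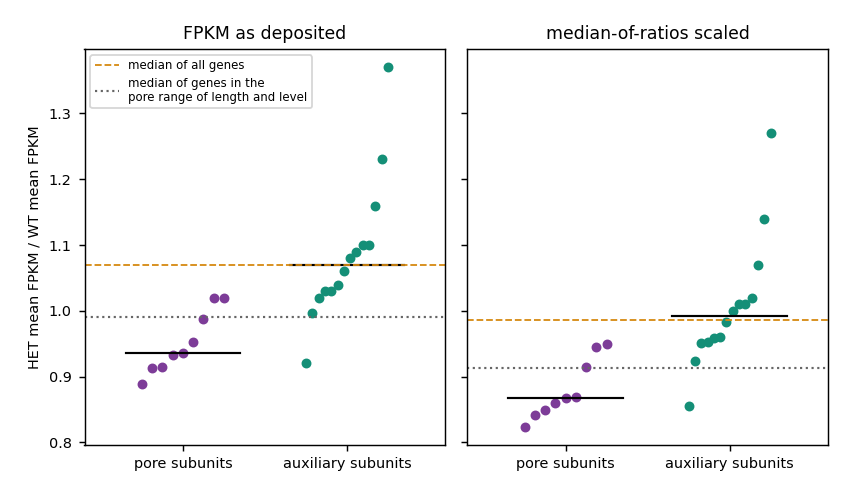
Ratio of the heterozygous (HET) to the wild-type (WT) mean FPKM of the 9 pore and 14 auxiliary genes that averaged 0.1 FPKM or more, as deposited (left) and after median-of-ratios scaling (right), 1 point for each gene and a black line at the median. The median of pore genes lies below that of auxiliary genes in both panels while the genes overlap, and in the right panel all 9 pore genes lie under 1, where the dotted line of 639 genes of like length and level stands at 0.913.

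Genes that act with these channels did not pass the test either. The 54 such genes included the sodium channel partners Fgf11 to Fgf14 and Ank3, calmodulin, calcium pumps and exchangers, calcium-activated potassium channels, active zone proteins and AMPA receptor subunits. Of these, 24 averaged 1 FPKM or more and were tested, and 0 were called in limma, against 0.0786% of all genes. Fgf12, Fgf13, Fgf14, Ank3 and the calcium-activated potassium channel genes did not reach that minimum and were not among the 24. In heterozygous libraries 16 had a higher and 8 a lower mean, with a median difference of 0.064, against 0.083 for all tested genes. Among the most abundant were the calmodulin genes Calm3 (156 ± 0.39 and 147 ± 23 FPKM in heterozygous and wild-type cerebellum) and Calm2 (102 ± 7.1 and 91.6 ± 11 FPKM), and the calcium pump gene Atp2a2 (18.3 ± 2.3 and 17.5 ± 3.2 FPKM; SD, n = 3 each). The median difference of the 11 channel genes was 0.032, and 8 of them had a difference above 0, as did 83.1% of all tested genes.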

How the data were processed

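The deposited values are FPKM for 1 library per file, in columns whose headers say rpkm. Per the labels' protocols, a stranded total RNA kit was used, single-end reads were filtered of mitochondrial and ribosomal sequence, trimmed by 2 bases and aligned to mm10 with TopHat2 and Bowtie, and the authors quantified genes with Cufflinks; their versions, the annotation release and the strand setting were not given in the sources used here. Genotype and replicate number came from sample titles. In heterozygous replicate 2, 40 values read as dates and those genes were left out, none of them a channel gene. Since FPKM is not a count, genes that averaged 1 FPKM or more were compared on log2(FPKM + 1) with limma 3.58.1 in R 4.3.3 (intensity trend, Benjamini-Hochberg adjustment over all 6358 genes, threshold 0.05), which was checked on simulated data. A pseudocount of 1 understates changes of low genes. Reads per gene are approximate: depth came from the steps of low values of 5875 genes with 1 transcript in GENCODE M21, with the longest transcript as length and no correction for effective length, and counting errors cover counting alone. Tables were made with pandas 2.3.3 and numpy 2.4.6 under Python 3.11.15, and figures with matplotlib 3.10.9. Named genes are those that averaged 1 FPKM or more, those whose groups did not overlap, and the highest of each subunit class and the genes of other tissues below it; further low genes were named after their values were seen. Genes, lists and alternatives were chosen with earlier results of these data known. Single-gene values of some genes are not reported here, though counts and medians include them.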

Additional observations from a re-analysis of the deposited data

How the results depend on the processing

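No channel gene and no partner gene was called in limma under any setting, and the median difference of the tested channel genes ran from -0.079 to 0.071. The genes called over all tested were 5 in the analysis reported. There were 0 with a minimum mean of 0.5 FPKM, with median-of-ratios scaling, with quantile normalization, with small RNA genes left out or without the intensity trend. There was 1 with no filter, and 1 with scaling, a pseudocount of 0.1 and a minimum of 0.1 FPKM together, a setting chosen after seeing the data. With 1 library left out there were 5 (without wild-type replicate 2) to 62 (without wild-type replicate 1), and 67 without replicate 2 of both groups. Libraries with the same replicate number did not deviate together (correlations -0.28, -0.52 and 0.14), and none matched its own number best; with the replicate as a block 13 genes were called and no channel gene.

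Differences of channel genes, none called, turned sign as follows, and the cause was not tested. Scaling by median of ratios, quantiles, sums without small RNA genes, and the setting chosen after seeing the data gave, in this order, -0.050, -0.031, -0.059 and -0.078 for Scn1a, -0.071, -0.11, -0.086 and -0.073 for Scn2b, -0.016, -0.025, -0.029 and -0.018 for Scn4b, -0.058, -0.051, -0.070 and -0.073 for Cacna1g, -0.039, -0.020, -0.048 and -0.060 for Cacnb4, and -0.034, -0.0099, -0.042 and -0.055 for Cacng7. Sums without small RNA genes gave -0.0081 for Cacnb3. Without replicate 2 of both groups the differences were -0.11 (Scn1a), -0.085 (Scn2b), -0.20 (Scn4b), -0.14 (Cacna1g), -0.0011 (Cacnb3), -0.013 (Cacnb4) and -0.058 (Cacng7). With 1 library left out they ran over -0.070 to 0.071 for Scn1a, -0.055 to 0.12 for Scn2b, -0.10 to 0.19 for Scn4b, -0.11 to 0.12 for Cacna1g, -0.020 to 0.060 for Cacnb4, -0.017 to 0.076 for Cacng7, 0.013 to 0.13 for Cacnb3, -0.092 to 0.048 for Scn2a and -0.12 to 0.0015 for Scn8a.

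The minimum of the test, a level per length, left out 29 of the 40 genes, and depth limited the lowest: 9 had fewer than 3 estimated reads in every library.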

Other observations

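Ratios between channel genes of 1 library do not depend on its scaling. Over the 253 pairs of the 23 channel genes that averaged 0.1 FPKM or more, the ratios of the groups did not overlap in 36 pairs (14.2%), against 10.6% of the 20202546 pairs of tested genes. The minimum was 0.1 FPKM for the channel pairs and 1 FPKM for the tested genes, so these shares are not on like terms. Each channel gene also enters many pairs, which are not independent. The pairs named here were chosen after their values were seen. The ratio of Cacng7 to Cacng5 was 1.57, 1.52 and 1.49 in heterozygous replicates 1, 2 and 3, against 1.66, 1.96 and 1.85 in wild-type replicates 1, 2 and 3. The ratio of Scn2a to Scn8a was 2.99, 2.95 and 2.99 in heterozygous and 2.82, 2.90 and 2.77 in wild-type libraries. Neither ratio overlapped between the groups, and neither was tested.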
